A study of Mus musculus with 10 samples.

Results

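The transcription factors that specify the lens placode and keep the lens epithelium in being were followed in whole mouse lenses with and without a conditional null allele of Klf4. The 9 genes were Pax6, Sox2, Six3, Foxe3, Tfap2a, Meis1, Meis2, Mab21l1 and Eya1, chosen by symbol for what they are known to do in the lens, with earlier results of these data known. All probe sets that carry one of these as their single gene symbol were taken, 25 of 45101 probe sets on the array, and they stood for 9 of 18193 named genes. Lenses labelled Klf4CN (Klf4-conditional null) of embryos at day 16.5 (E16.5) and wild-type (WT) lenses of that age had 3 arrays each, and lenses labelled Klf4CN at postnatal day 56 (PN56) and WT lenses of that age had 2 arrays each. Each array held total RNA from 1 preparation of whole dissected lenses, pooled from 5 embryos at E16.5 and from 3 young adults at PN56. The labels give neither the strain nor the Cre driver. As background on this line, and not from the labels, Klf4 was deleted with Le-Cre, which is driven by regulatory sequence of Pax6 in the surface ectoderm of the eye, so that the Cre is tied to one of the genes described here. Whether the WT animals carried it is not given in the sources used here.

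The lens arises from a thickening of surface ectoderm, the placode, whose cells need Pax6, Six3 and Sox2 to take on lens fate. Once the vesicle has formed, its front wall becomes a single layer of dividing epithelium, and its rear wall elongates into fibres that fill with crystallins. Foxe3 and Tfap2a are then confined to the epithelium, where Foxe3 keeps cells dividing and alive, and Pax6 stays high there while it declines in fibres. Because whole lenses were measured, fewer epithelial cells and less RNA per epithelial cell cannot be told apart in any value below.

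Klf4, the targeted gene, is a zinc finger factor that binds CACCC-like sequence. Its brighter probe set had signals of 1360, 805 and 1072 in E16.5 Klf4CN lenses against 774, 1015 and 428 in E16.5 WT lenses, and of 732 and 702 in PN56 Klf4CN lenses against 156 and 214 in PN56 WT lenses. On this probe set Klf4 signal was therefore higher, not lower, in the adult lenses labelled Klf4CN (log2 difference 1.88, limma adjusted p = 0.0041). The second Klf4 probe set was also higher there, at 1.04, but did not pass over all probe sets (limma adjusted p = 0.095). At E16.5 the 2 probe sets were at 0.59 and 0.65, with overlapping groups, and neither passed. Since the labels do not place the probe sets relative to the deleted part, every direction below is that of the lenses labelled Klf4CN. All 9 genes of the lens fibre list, among them Cryaa, Mip and Bfsp1, passed the filter on dim signals, as did 11 genes of lens epithelium, so the defining genes of lens tissue were present. The summed signal of 11 retinal progenitor and neuron genes differed between E16.5 arrays, at 6360, 19184 and 10231 in Klf4CN lenses against 843, 10157 and 5110 in WT lenses, and at PN56 it lay between 2177 and 2619 in Klf4CN lenses against 2319 and 2438 in WT lenses. Photoreceptor genes summed to between 294 and 432 in E16.5 Klf4CN lenses and between 182 and 337 in E16.5 WT lenses, and to between 3587 and 12680 in PN56 Klf4CN lenses against 5103 and 5387 in PN56 WT lenses. Pigment cell genes summed to between 3510 and 9321 in E16.5 Klf4CN lenses against 2578 to 3638 in E16.5 WT lenses, and to 5636 and 5699 in PN56 Klf4CN lenses against 9276 and 11092 in PN56 WT lenses. All 11 retinal genes tested had positive log2 differences at E16.5 (median 1.79), 6 of the 11 did at PN56 (median 0.12), and 0 passed the test at either age. The 18S ribosomal control at its 5' end averaged 21778 ± 945 in E16.5 Klf4CN lenses against 1869 ± 646 in E16.5 WT lenses (SD, n = 3 each), and 8353 ± 3751 in PN56 Klf4CN lenses against 1699 ± 1656 in PN56 WT lenses (SD, n = 2 each), and its part in the results was not tested.

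The first comparison set embryonic lenses labelled Klf4CN against embryonic WT lenses. At E16.5, 0 of the 9 passed the test, a limma adjusted p under 0.05 (0.00744% of all 13444 tested genes did), with a median log2 difference of -0.12, where 50% of all tested genes were below 0, and 1 of the 9 had an unadjusted p under 0.05, as did 4.54% of all tested genes. That gene was Tfap2a, encoding the AP-2 alpha factor of surface ectoderm and lens epithelium. Its signals were 927, 954 and 1119 in Klf4CN lenses against 1226, 1220 and 1358 in WT lenses. Tfap2a was the only one of the 9 whose embryonic groups did not overlap, with every Klf4CN array below every WT array, as 6.65% of all tested genes were (5.24% lay apart in the other direction). The log2 difference was -0.34 ± 0.12 (SE; limma adjusted p = 0.9997), and the second of its 3 probe sets, at 361, 408 and 510 in Klf4CN lenses against 592, 578 and 624 in WT lenses, had a log2 difference of -0.49. The name of that second probe set ends in _s_at, the maker's mark for probes that other transcripts can share. The third, at 89.7, 124 and 121 in Klf4CN lenses against 122, 82.8 and 173 in WT lenses, had overlapping groups and a difference of -0.12. Of the 25 probe sets 0 passed, where 0.00222% of all probe sets rose.

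Pax6, the paired and homeodomain factor at the head of eye development, had signals of 3681, 5685 and 3353 in E16.5 Klf4CN lenses against 3573, 4564 and 3903 in E16.5 WT lenses. Those of Meis1, a TALE homeodomain factor that binds a placode enhancer of Pax6 in mouse, were 826, 1225 and 810 in Klf4CN lenses against 659, 1094 and 780 in WT lenses. Both genes were highest in the second replicate of each genotype. The retinal genes were also highest in those 2 replicates, at 19184 in Klf4CN lenses and 10157 in WT lenses, and lowest on WT replicate 1, which had the lowest Pax6 and Meis1 signals among WT lenses. Among Klf4CN lenses the retinal genes were lowest on replicate 1, at 6360, but Pax6 and Meis1 on replicate 3. With the mean signal of retinal and pigment genes as a covariate, the log2 difference was -0.29 for Pax6 and -0.27 for Meis1, against 0.05 and 0.18 without it, and neither passed the test in either fit.

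Sox2, an SRY-related factor that acts with Pax6 on placode and crystallin enhancers, had a log2 difference of 0.0058 at E16.5 with a 95% interval from -0.22 to 0.24. Signals of Six3, a homeodomain factor needed for lens specification, gave -0.12 (-0.46 to 0.21). The forkhead gene Foxe3 was at 791, 776 and 582 in Klf4CN lenses against 928, 684 and 1083 in WT lenses, overlapping groups, and its log2 difference was -0.31 (-0.77 to 0.15). Eya1, a coactivator and phosphatase that partners SIX-family homeodomain proteins, had a difference of -0.32 (-0.71 to 0.08), Mab21l1, needed for the lens vesicle to form, of -0.15 (-0.48 to 0.18), and Meis2, the paralog of Meis1, of -0.06 (-0.41 to 0.29). The intervals of these 6 genes therefore allow changes in either direction. The 4 dimmer Pax6 probe sets had differences from -0.65 to 0.09 at E16.5, with overlapping groups for 3 of them. The one at -0.65 was lower on every Klf4CN array, at 51.7, 28.6 and 34.9 against 73, 66 and 65.6 in WT lenses, did not pass, and had Klf4CN signals under the 54.1 of the filter.

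**Figure D1:**
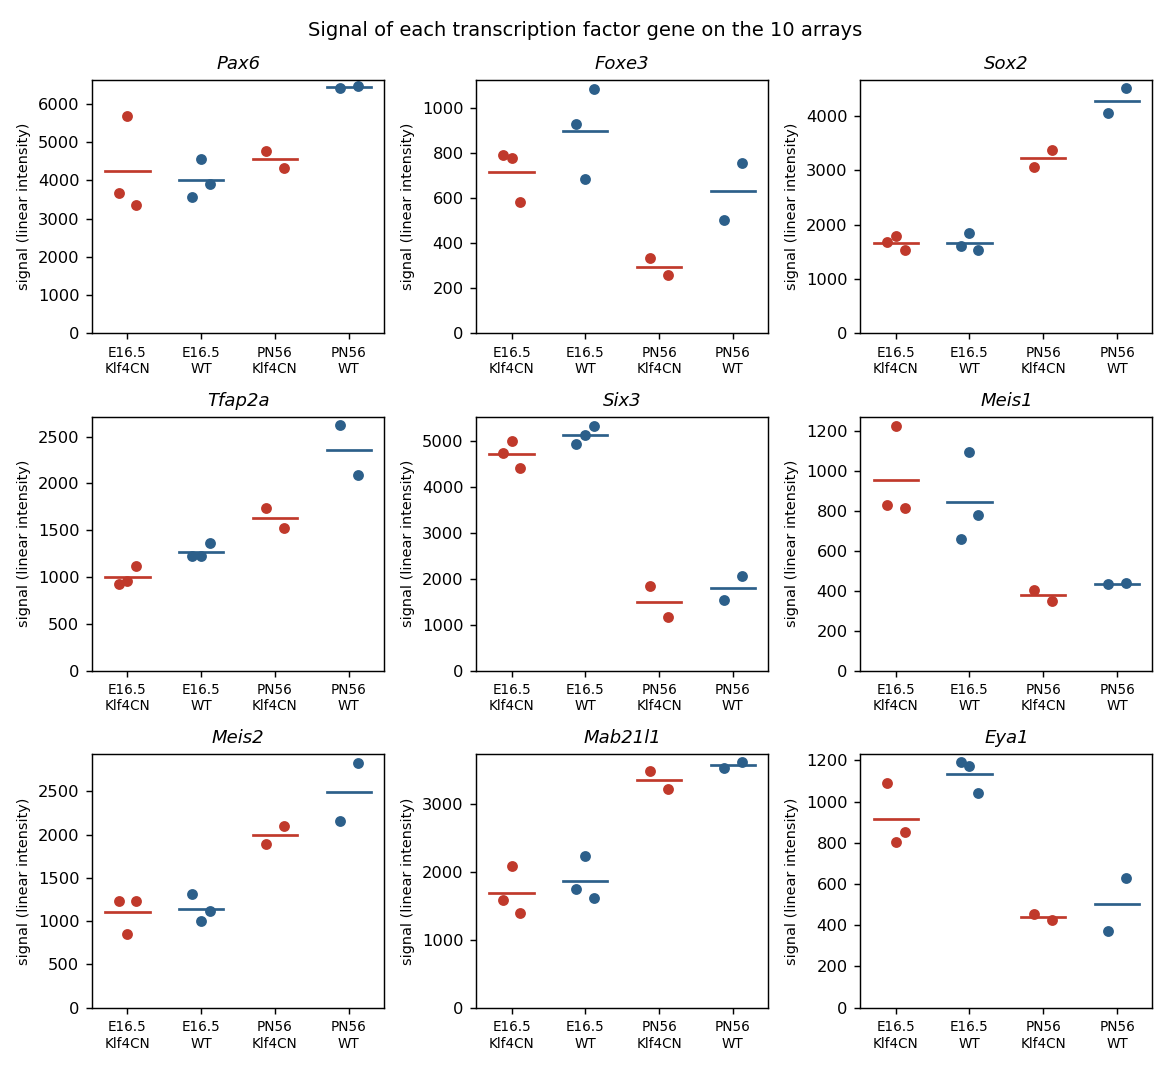
Deposited signal (linear intensity, y axis from 0) of the brightest probe set of each of the 9 genes on every array, in E16.5 Klf4CN, E16.5 WT, PN56 Klf4CN and PN56 WT lenses; points are arrays and bars are group means. Foxe3 was lowest in PN56 Klf4CN lenses (336 and 258), and the ages part for Sox2, Tfap2a, Six3, Meis1, Meis2, Mab21l1 and Eya1.

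In the adult lens the same comparison gave 2 falls. At PN56 Foxe3 and Tfap2a fell in lenses labelled Klf4CN and 0 of the 9 genes rose, where 6.99% of all tested genes fell and 6.08% rose. All 9 log2 differences were negative, that of Mab21l1 being 0.03 with each array centred on its median, and 54.7% of all tested genes were also below 0. The median was -0.31 against -0.06 over all tested genes. For 7 of the 9 genes both Klf4CN arrays lay below both WT arrays, an arrangement found for 29.1% of all tested genes (21.6% had the opposite one).

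Foxe3 had signals of 336 and 258 in PN56 Klf4CN lenses against 502 and 757 in PN56 WT lenses. Both Klf4CN arrays were thus below both WT arrays, and the WT arrays differed from each other by more than the Klf4CN arrays did. Its log2 difference was -1.03 ± 0.26 (SE; limma adjusted p = 0.023), or 0.49 times the WT level on the log2(signal + 16) scale. Foxe3 is represented by 1 probe set, so no second one on the array checks it. The call was lost in 5 of 22 alternatives: centring of the arrays, no intensity trend (adjusted p = 0.062), the 4 PN56 arrays alone (adjusted p = 0.072), and leaving out PN56 WT replicate 2 (log2 difference -0.74, adjusted p = 0.131) or PN56 Klf4CN replicate 2 (-0.85, adjusted p = 0.129). Its direction held in all 22.

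Tfap2a had signals of 1733 and 1524 in PN56 Klf4CN lenses against 2625 and 2090 in PN56 WT lenses. Here too the groups did not overlap, and the log2 difference was -0.52 ± 0.15 (SE; limma adjusted p = 0.039). Its other 2 probe sets pointed the same way, the second with 1018 and 674 in Klf4CN lenses against 1188 and 1249 in WT lenses (-0.55) and the dimmest with 272 and 238 against 284 and 453 (-0.47), neither past the test over all probe sets. The second is the _s_at probe set, which other transcripts can share. The call of Tfap2a was lost in 12 of 22 alternatives, which gave adjusted p up to 0.218 and included centring, no intensity trend, the PN56 arrays alone, averaged probe sets and the marker covariate. Without PN56 WT replicate 1 the difference was -0.36 (adjusted p = 0.218) and without PN56 Klf4CN replicate 2 it was -0.43 (adjusted p = 0.175). Leaving out E16.5 WT replicate 1 or 2 or E16.5 Klf4CN replicate 1 or 2, which leaves the difference as it is and takes an array from the estimate of spread, gave adjusted p from 0.052 to 0.054.

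**Figure D2:**
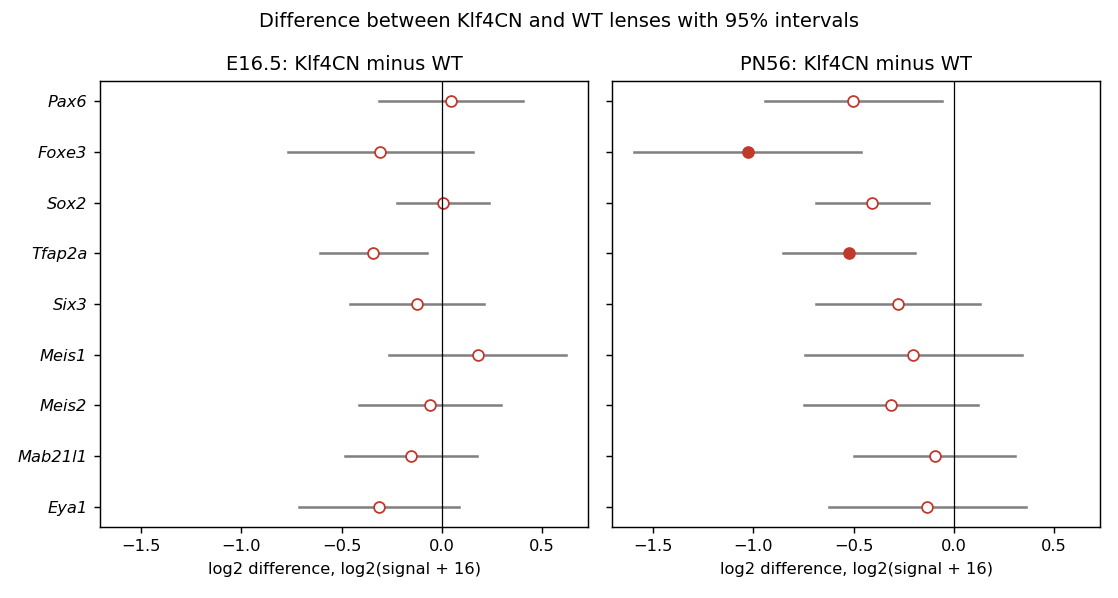
Log2 difference between Klf4CN and WT lenses (x axis, log2(signal + 16) scale) for the 9 genes at E16.5 on the left and PN56 on the right, with 95% intervals as bars; filled points passed the test at an adjusted p under 0.05. The filled points are Foxe3 (-1.03) and Tfap2a (-0.52) at PN56.

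The 3 placode factors did not pass the test at PN56. Sox2 was nearest to it, with 3066 and 3376 in Klf4CN lenses against 4046 and 4514 in WT lenses. Its groups did not overlap, and the log2 difference was -0.41 ± 0.13 (SE; limma adjusted p = 0.058). Sox2 passed in 2 of 22 alternatives, among them quantile normalization (-0.43, limma adjusted p = 0.044). With each array centred on its median it was at -0.28 (limma adjusted p = 0.336). The brightest probe set of Pax6 had 4760 and 4332 in Klf4CN lenses against 6406 and 6472 in WT lenses, also apart, with a log2 difference of -0.50 ± 0.20 (SE; limma adjusted p = 0.124). Without E16.5 Klf4CN replicate 2, which had the highest Pax6 signal of the embryonic arrays, Pax6 was past the test at the same difference (limma adjusted p = 0.027). It did not pass in the other 21 of 22 alternatives. With each array centred on its median it was at -0.37 (limma adjusted p = 0.337). The other 4 Pax6 probe sets gave log2 differences from -0.51 to 0.12, and 3 of those had overlapping groups. Pigment cell genes, at 5636 and 5699 in Klf4CN lenses against 9276 and 11092 in WT lenses, were lower on the same arrays. With retinal and pigment signal as a covariate the differences were -0.40 for Pax6 (adjusted p = 0.154), -0.38 for Sox2 (adjusted p = 0.095), -1.03 for Foxe3 (adjusted p = 0.034) and -0.52 for Tfap2a (adjusted p = 0.059). Six3 had 1845 and 1161 in Klf4CN lenses against 1544 and 2054 in WT lenses, groups that overlapped, with a log2 difference of -0.28 (limma adjusted p = 0.363). Over its 22 alternatives the difference of Six3 ran from -0.61, without PN56 Klf4CN replicate 1, to 0.20, and 2 of them had the opposite sign.

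The other 4 genes did not pass either. Meis2 was at 1887 and 2100 in Klf4CN lenses against 2163 and 2832 in WT lenses (log2 difference -0.31, 95% interval -0.75 to 0.12). All 4 probe sets of Meis2 had Klf4CN arrays below WT arrays without overlap, with log2 differences from -1.22 to -0.31 and 0 past the test. Over all tested genes, by their brightest probe set, 29.1% had that arrangement. The -1.22 is from the dimmest, at 93.5 and 22.2 in Klf4CN lenses against 144.7 and 124.8 in WT lenses, with a signal under the filter. The brightest Meis2 probe set ends in _s_at, the maker's mark for probes that other transcripts can share. Meis1 was at 402 and 350 in Klf4CN lenses against 431 and 437 in WT lenses (-0.20, interval -0.74 to 0.34), and Mab21l1 at 3486 and 3221 against 3538 and 3631 (-0.10, interval -0.50 to 0.31). Eya1 was at 457 and 428 in Klf4CN lenses, inside the WT range of 375 and 630 (-0.13, interval -0.62 to 0.36), and its 2 dimmer probe sets had the opposite sign (0.58 and 0.88). Both of these had Klf4CN arrays above WT arrays without overlap, as 21.6% of all tested genes did. They were at 147.9 and 170.2 against 69.6 and 142.5 in WT lenses, and at 53.3 and 49.6 against 37.9 and 9. Of the 25 probe sets, 19 had negative differences, and 1, that of Foxe3, fell, where 3.04% of all probe sets fell and 2.93% rose.

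Some bright signals of other kinds were lower on the same adult Klf4CN arrays. The beta-actin control averaged 62492 ± 529 in PN56 Klf4CN lenses against 81662 ± 3544 in PN56 WT lenses (SD, n = 2 each, 3' probe set). Its 5' probe set averaged 41046 ± 3069 in PN56 Klf4CN lenses against 44481 ± 323 in PN56 WT lenses (SD). Of the lens fibre genes 8 of 9 fell, where 6.99% of all tested genes did. Their list summed to between 588666 and 600325 in PN56 Klf4CN lenses against 786305 and 889590 in PN56 WT lenses. Other bright genes were not lower, among them Cp (mean 13589 in PN56 Klf4CN lenses against 13229 in PN56 WT lenses) and Trpm3 (6472 against 6390). With each array centred on its median, which moves the median of all tested genes at PN56 from -0.06 to 0.07, the difference was -0.90 for Foxe3 (adjusted p = 0.057) and -0.40 for Tfap2a (adjusted p = 0.187), and 0 of the 9 genes passed. Over all tested genes 919 rose and 358 fell with centring, where 817 rose and 940 fell as deposited. With quantile normalization, which gives all arrays 1 distribution, 3 passed, Foxe3, Tfap2a and Sox2. The Cre control of the array, bright in WT lenses too, was also lower on the adult Klf4CN arrays. Its 3' probe set averaged 52250 ± 1397 in PN56 Klf4CN lenses against 78237 ± 7931 in PN56 WT lenses (SD, n = 2 each). The part of scaling and of this control difference in the falls was not tested beyond these values.

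**Figure D3:**
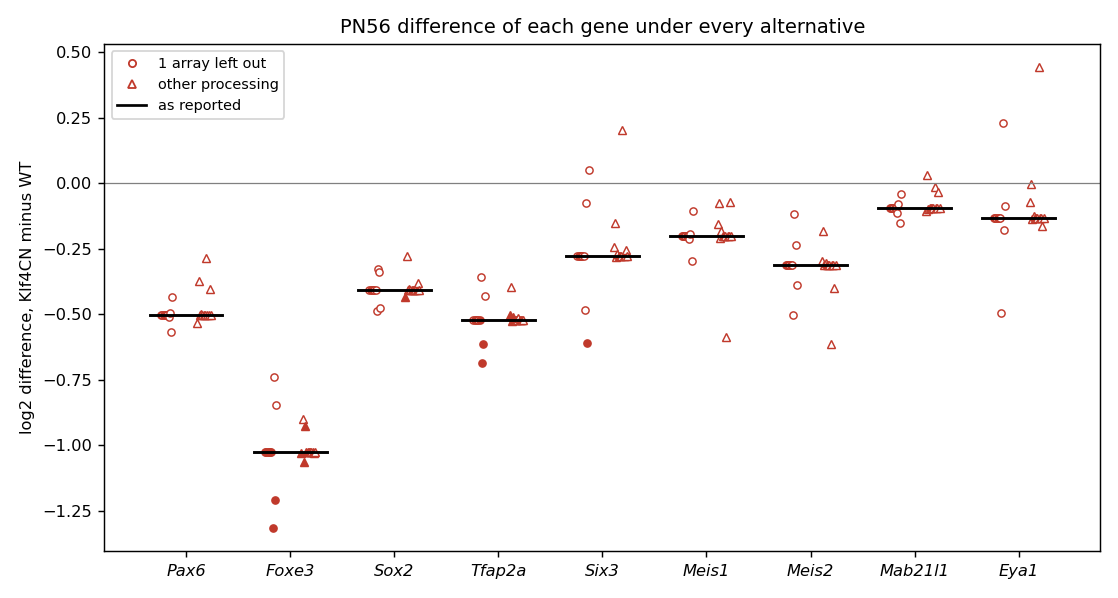
Log2 difference between PN56 Klf4CN and PN56 WT lenses (y axis) for each of the 9 genes as reported (black bar), with each of the 10 arrays left out in turn (circles) and under the other processing alternatives (triangles); filled symbols passed the test. Foxe3 stayed between -1.32 and -0.74, and Six3, Mab21l1 and Eya1 had alternatives on both sides of 0.

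The difference between the Klf4CN effects at PN56 and at E16.5 was tested directly, and 0 of the 9 genes passed (4.61% of all tested genes did). An unadjusted p under 0.05 was found for 1 of the 9 and for 20.4% of all tested genes. The effect at PN56 minus that at E16.5 was -0.72 ± 0.34 for Foxe3 (SE; limma adjusted p = 0.251), -0.41 ± 0.17 for Sox2 (adjusted p = 0.182), -0.55 ± 0.26 for Pax6 (adjusted p = 0.261) and -0.18 ± 0.19 for Tfap2a (adjusted p = 0.644). A fall in the adult lens that differs from the embryonic difference is therefore not shown for any of the 9.

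The sequence around the start of the genes was then read for the letters that Kruppel-like factors bind. RefSeq windows of 250 bases before to 50 after the start (GRCm38.p6) matched 7 of the 9 genes, Pax6 and Tfap2a with 2 starts each. For Tfap2a, Six3, Meis1 and Meis2 the windows do not reach the first base of the annotated gene, and the sequence there was not read. In that annotation the genes of the largest falls lie at chr4:114924443-114926067 (Foxe3) and chr13:40713802-40738238 (Tfap2a), and those of the placode factors at chr3:34649995-34652461 (Sox2), chr2:105668896-105698410 (Pax6) and chr17:85613608-85626191 (Six3). The motifs were CACCC, or GGGTG on the other strand, and CACNCCC, or GGGNGTG, and 57.5% and 29.2% of all 32851 windows of that length held them. Foxe3 (chr4:114926018-114926317, minus strand), the gene with the largest fall, held 2 matches to CACCC and 3 to CACNCCC, 2 of which overlap those to CACCC. At least 2 matches to CACCC are held by 25.7% of all windows, and at least 3 to CACNCCC by 1.99%. Tfap2a held 1 match to CACCC in each of its 2 windows (chr13:40734871-40735170 and chr13:40733746-40734045, minus strand) and 0 to CACNCCC. Sox2 (chr3:34649745-34650044, plus strand), shown because its difference was next in p, held neither. The 4 windows are given 5′ to 3′ along the gene's strand, with matches to either motif in capitals.
Foxe3: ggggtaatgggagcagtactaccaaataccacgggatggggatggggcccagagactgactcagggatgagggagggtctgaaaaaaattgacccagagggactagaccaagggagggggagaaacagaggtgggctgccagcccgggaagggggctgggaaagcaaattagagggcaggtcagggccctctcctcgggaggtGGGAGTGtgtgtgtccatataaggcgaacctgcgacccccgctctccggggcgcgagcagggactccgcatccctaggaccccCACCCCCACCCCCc
Tfap2a first start: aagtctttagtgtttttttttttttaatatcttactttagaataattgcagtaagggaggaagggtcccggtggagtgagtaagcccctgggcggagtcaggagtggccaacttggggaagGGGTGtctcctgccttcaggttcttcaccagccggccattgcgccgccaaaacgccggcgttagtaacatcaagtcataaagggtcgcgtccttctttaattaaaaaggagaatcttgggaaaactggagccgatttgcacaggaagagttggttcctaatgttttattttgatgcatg
Tfap2a second start: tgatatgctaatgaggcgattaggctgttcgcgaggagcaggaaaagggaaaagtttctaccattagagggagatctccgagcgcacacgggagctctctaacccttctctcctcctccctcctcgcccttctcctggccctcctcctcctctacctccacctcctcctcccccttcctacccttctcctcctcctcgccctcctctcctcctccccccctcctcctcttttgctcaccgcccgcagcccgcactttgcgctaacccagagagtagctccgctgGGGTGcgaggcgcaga
Sox2: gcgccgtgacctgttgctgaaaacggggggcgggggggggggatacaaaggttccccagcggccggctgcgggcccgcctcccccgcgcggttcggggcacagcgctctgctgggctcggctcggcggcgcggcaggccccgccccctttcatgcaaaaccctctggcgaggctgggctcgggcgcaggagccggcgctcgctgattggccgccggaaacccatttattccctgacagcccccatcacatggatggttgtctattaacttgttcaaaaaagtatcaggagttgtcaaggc
Among genes that did not pass, Meis1 held 3 matches to CACCC, a number that 9.35% of all windows reach, Six3 and the first Pax6 start 1 each, and Meis2 and the second Pax6 start 0. To CACNCCC, Meis1 held 2 matches, a number that 7.55% of all windows reach. Six3 and the first Pax6 start held 1 each to CACNCCC, and Meis2 and the second Pax6 start 0. The matches are letters in a window, and the arrays measured no binding.

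The comparison between ages asked how the same genes stand in the adult lens relative to the embryonic lens. In Klf4CN lenses 4 of the 9 rose at PN56, Sox2, Tfap2a, Meis2 and Mab21l1, and 4 fell, Six3, Meis1, Foxe3 and Eya1, where 22.3% of all tested genes rose and 30.8% fell. In WT lenses 5 rose, the same 4 and Pax6, and 3 fell, Six3, Eya1 and Meis1, where 25.8% of all tested genes rose and 30.9% fell. Ranges of the 2 ages did not overlap for 8 of the 9 genes in either genotype. Over all tested genes, 31.3% in Klf4CN lenses and 34% in WT lenses lay apart and higher at PN56, and 39.2% and 37.1% lay apart and lower. The 2 age comparisons use different arrays, but age is tied to the number of animals pooled and to preparation. The dap spike averaged 12.85 ± 2.33 in PN56 WT lenses (SD, n = 2, 3' probe set) and 3655 ± 518 in E16.5 WT lenses (SD, n = 3). The lys and phe spikes were lower at PN56 too. The 3' Cre control was higher, at 78237 ± 7931 in PN56 WT lenses against 38343 ± 3222 in E16.5 WT lenses (SD). In Klf4CN lenses it was at 52250 ± 1397 at PN56 against 33182 ± 367 at E16.5 (SD). The 3' beta-actin control was also higher, at 81662 ± 3544 in PN56 WT lenses against 36843 ± 1739 in E16.5 WT lenses (SD). Age and preparation therefore cannot be told apart, and the part of these control differences in the rises was not tested.

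Sox2 was at 3066 and 3376 in PN56 Klf4CN lenses against 1678, 1798 and 1526 in E16.5 Klf4CN lenses, and at 4046 and 4514 in PN56 WT lenses against 1611, 1838 and 1536 in E16.5 WT lenses. It rose by 0.95 ± 0.12 in Klf4CN lenses and by 1.36 ± 0.12 in WT lenses (log2; SE; limma adjusted p = 2.96e-05 and 1.27e-06). Six3 went the other way, at 1845 and 1161 in PN56 Klf4CN lenses against 4729, 5002 and 4407 in E16.5 Klf4CN lenses, and at 1544 and 2054 in PN56 WT lenses against 4940, 5125 and 5313 in E16.5 WT lenses. It fell by 1.67 ± 0.17 in Klf4CN lenses and by 1.52 ± 0.17 in WT lenses (log2; SE; limma adjusted p = 5.82e-06 and 1.19e-05). These 2 placode factors thus stand apart by age on every array, in opposite directions.

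In Klf4CN lenses Foxe3 was at 336 and 258 at PN56 against 791, 776 and 582 at E16.5, and fell by 1.23 ± 0.24 (SE; limma adjusted p = 8.88e-04). In WT lenses it was at 502 and 757 at PN56 against 928, 684 and 1083 at E16.5, groups that overlapped, and its log2 difference of -0.51 did not pass (limma adjusted p = 0.087). The WT comparison passed without E16.5 WT replicate 2 (-0.69, adjusted p = 0.030), without PN56 WT replicate 2 (-0.79, adjusted p = 0.034) and with each array centred on its median (-1.02, adjusted p = 0.0028). Tfap2a, the other epithelial factor, was at 1733 and 1524 in PN56 Klf4CN lenses against 927, 954 and 1119 in E16.5 Klf4CN lenses, and at 2625 and 2090 in PN56 WT lenses against 1226, 1220 and 1358 in E16.5 WT lenses. It rose by 0.70 ± 0.14 in Klf4CN lenses and by 0.88 ± 0.14 in WT lenses (SE; limma adjusted p = 0.0010 and 1.67e-04). All 3 of its probe sets, the second of them the _s_at probe set, rose in both genotypes.

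Meis1 and Meis2, close paralogs, moved in opposite directions. Meis1 was at 402 and 350 in PN56 Klf4CN lenses against 826, 1225 and 810 in E16.5 Klf4CN lenses, and at 431 and 437 in PN56 WT lenses against 659, 1094 and 780 in E16.5 WT lenses. It fell by 1.28 ± 0.23 in Klf4CN lenses and by 0.90 ± 0.23 in WT lenses (SE; limma adjusted p = 4.55e-04 and 0.0048). Meis2 was at 1887 and 2100 in PN56 Klf4CN lenses against 1230, 854 and 1234 in E16.5 Klf4CN lenses, and at 2163 and 2832 in PN56 WT lenses against 1308, 1004 and 1119 in E16.5 WT lenses. It rose by 0.86 ± 0.18 in Klf4CN lenses and by 1.11 ± 0.18 in WT lenses (SE; limma adjusted p = 0.0017 and 2.42e-04). The ages do not overlap for either gene in either genotype. A dim Meis1 probe set, at 78.1 and 264 in PN56 WT lenses against 19.8, 25.8 and 18.8 in E16.5 WT lenses, ran against the bright one, from E16.5 signals under the filter. Mab21l1 rose by 1.0 ± 0.17 in Klf4CN lenses and by 0.95 ± 0.17 in WT lenses. Eya1 fell by 1.01 ± 0.21 in Klf4CN lenses and by 1.20 ± 0.21 in WT lenses. The log2 differences of the 2 dimmer Eya1 probe sets lay between -0.08 and 0.66 over both genotypes, and 0 of these passed.

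The 2 brightest probe sets of Pax6 gave different values for the change with age, a difference between them that was not tested. In Klf4CN lenses the brightest was at 4760 and 4332 at PN56 against 3681, 5685 and 3353 at E16.5, a log2 difference of 0.14 (limma adjusted p = 0.552) that was 0.37 and past the test without E16.5 Klf4CN replicate 2 (adjusted p = 0.033). In WT lenses it was at 6406 and 6472 at PN56 against 3573, 4564 and 3903 at E16.5 and rose by 0.69 ± 0.18 (SE; limma adjusted p = 0.0071). The next rose by 1.49 in Klf4CN lenses, with 1931 and 1508 at PN56 against 510, 760 and 547 at E16.5, and by 1.70 in WT lenses, with 1826 and 2131 at PN56 against 403, 743 and 707 at E16.5. The third was at 346 and 405 in PN56 Klf4CN lenses against 26.1, 70.6 and 28.1 in E16.5 Klf4CN lenses, and at 279 and 422 in PN56 WT lenses against 34.6, 35.1 and 35.2 in E16.5 WT lenses. It rose in both genotypes, but its E16.5 means lie under the filter, so the size of its rise is not set beside the others. The names of the second and the third end in _a_at and _s_at, the maker's marks for probes that alternative or other transcripts can share. The dimmest also rose in both genotypes, at 171 and 142 in PN56 Klf4CN lenses and 288 and 181 in PN56 WT lenses, and the remaining one did not pass in either. The probe sets of Mab21l1 also differed, the second rising by 2.27 in Klf4CN and by 1.94 in WT lenses. Over all 25 probe sets, 10 rose and 4 fell in Klf4CN lenses, where 15.3% and 14% of all probe sets did, and 14 rose and 4 fell in WT lenses, where 19.2% and 14.4% did.

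**Figure D4:**
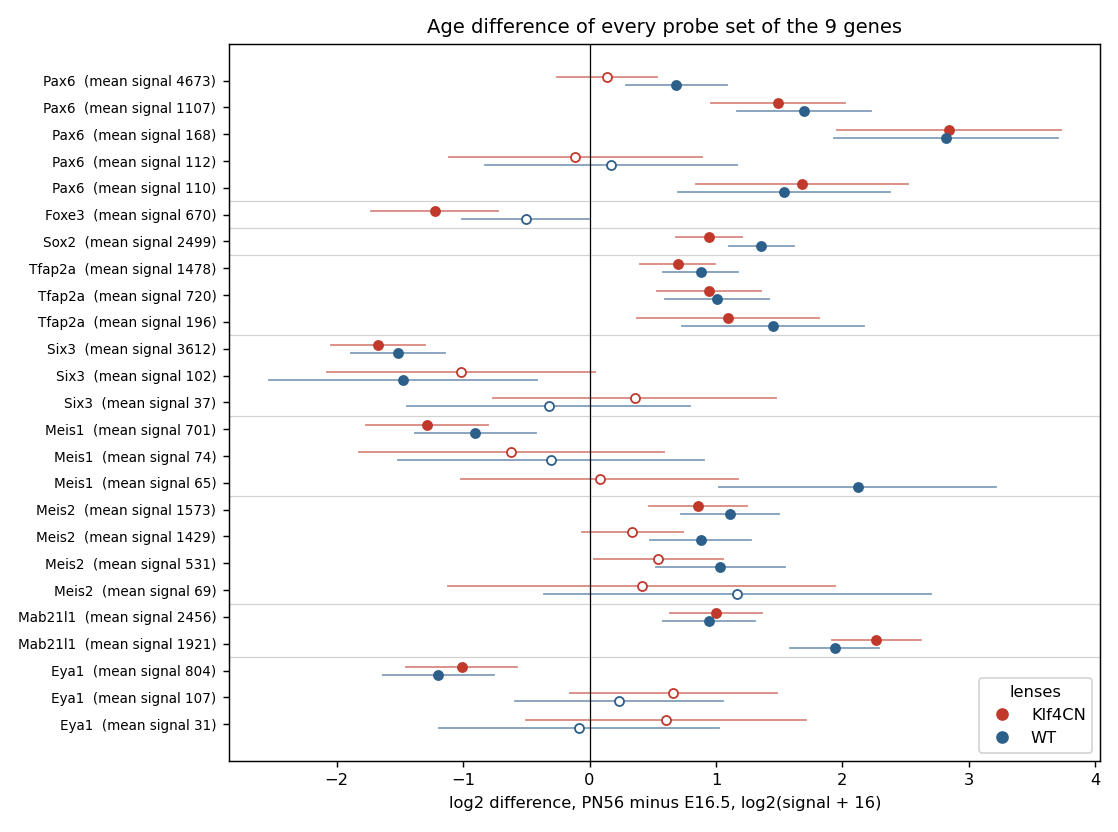
Log2 difference between PN56 and E16.5 (x axis, log2(signal + 16) scale) for all 25 probe sets of the 9 genes, in Klf4CN lenses (red) and WT lenses (blue), with 95% intervals as bars; filled points passed the test over all probe sets, and rows within a gene run from bright to dim. The 2 brightest Pax6 probe sets are at 0.14 and 1.49 in Klf4CN lenses and at 0.69 and 1.70 in WT lenses; points of probe sets near or under the filter signal of 54.1 at 1 age, the third and the dimmest of Pax6 among them, have no exact size.

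With each array centred on its median, which lowers the median of all tested genes to -0.44 in Klf4CN lenses and to -0.55 in WT lenses, against -0.10 and -0.04 as deposited, the rises in WT lenses were smaller for Pax6 (0.17), Tfap2a (0.36) and Mab21l1 (0.43), and none of these 3 passed. Tfap2a did not pass in Klf4CN lenses either (0.35, adjusted p = 0.080). In Klf4CN lenses 1745 of all tested genes rose and 5719 fell with centring, where 3003 rose and 4137 fell as deposited, and in WT lenses 1683 rose and 6404 fell, where 3474 rose and 4153 fell. Sox2 and Meis2 rose and Six3, Meis1 and Eya1 fell in both genotypes under the deposited scaling, quantile normalization and centring alike, while the difference of Pax6 in Klf4CN lenses was -0.21 with centring. Ordered by group mean, Pax6, Sox2, Tfap2a, Meis2 and Mab21l1 were highest in PN56 WT lenses, with PN56 Klf4CN lenses next. Foxe3, Six3 and Eya1 were highest in E16.5 WT lenses and lowest in PN56 Klf4CN lenses, and Meis1 was highest in E16.5 Klf4CN lenses. Neighbours in that order overlapped between the 2 embryonic groups for every gene but Tfap2a, between the 2 adult groups for Six3 and Eya1, between PN56 Klf4CN and E16.5 Klf4CN lenses for Pax6, and between E16.5 Klf4CN and PN56 WT lenses for Foxe3.

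Related regulators, that is, family relatives and partners of the 9 genes and other factors of lens and eye field, were set beside them. Of 33 listed genes, 27 were tested. At PN56 1 rose in Klf4CN lenses, Eya4, a relative of Eya1, by 2.18 (limma adjusted p = 0.0014), and 1 fell, Pbx3, a homeodomain partner of Meis proteins, by 0.43 (adjusted p = 0.010). Zeb2 was at 1.03 (adjusted p = 0.079) and Eya3 at -0.63 (adjusted p = 0.099), neither past the test. The size of the Eya4 difference is not exact, since its PN56 WT mean lies under the filter. Eya4 averaged 285 ± 28.1 in PN56 Klf4CN lenses against 51.3 ± 15.6 in PN56 WT lenses (SD, n = 2 each), and 158 ± 15.5 in E16.5 Klf4CN lenses against 144 ± 28.7 in E16.5 WT lenses (SD, n = 3 each). Its Klf4CN effect differed between the ages in the direct test (2.04, adjusted p = 0.018). The median over the 27 was 0.08, against -0.31 for the 9 genes. With each array centred on its median, with probe sets averaged per gene, without the intensity trend or with the PN56 arrays alone, 0 of the 27 fell. The call of Pbx3 was thus lost in each of those settings. Calls also changed when PN56 WT replicate 1 or PN56 Klf4CN replicate 1 was left out. With the PN56 arrays alone, with the marker covariate or without E16.5 WT replicate 2, 2 of the 27 rose. At E16.5 0 of 27 passed, with a median of 0.18. The highest were Mab21l2, Otx2 and Six6, which the retina also expresses, at 1.81, 1.70 and 1.17. Mab21l2 averaged 1614 ± 1811 in E16.5 Klf4CN lenses against 880 ± 1103 in E16.5 WT lenses (SD, n = 3 each). Retinal sums overlapped between these groups, from 6360 to 19184 in Klf4CN lenses and from 843 to 10157 in WT lenses. Their part in the 27 values was not tested.

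Of 12 lens epithelium genes that are not transcription factors, 11 were tested, and at PN56 6 fell in Klf4CN lenses and 0 rose, with a median of -0.44, where 6.99% of all tested genes fell and 6.08% rose. Of the 5 that did not pass, 4 had positive differences, the integrin gene Itgb1 (0.47, adjusted p = 0.058), the cadherin gene Cdh1 (0.25), Trpm3 and Cp, and Npnt was at -0.14. The glucose transporter gene Slc2a1 fell by 0.73 (limma adjusted p = 9.99e-04), the sulfatase gene Sulf1 by 0.84, the water channel gene Aqp1 by 1.0 and Dkk3 by 0.44. The other 2 that fell were Gja1, a connexin gene (-1.26), and Pdgfra, a growth factor receptor gene (-0.77); these 2 and the 5 that did not pass were named after their values were seen. With probe sets averaged per gene 2 fell, 3 fell without the intensity trend or with PN56 WT replicate 1 or PN56 Klf4CN replicate 2 left out, and with each array centred on its median 4 fell and 1 rose. At E16.5 0 of 11 passed, with a median of -0.17.

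**Figure D5:**
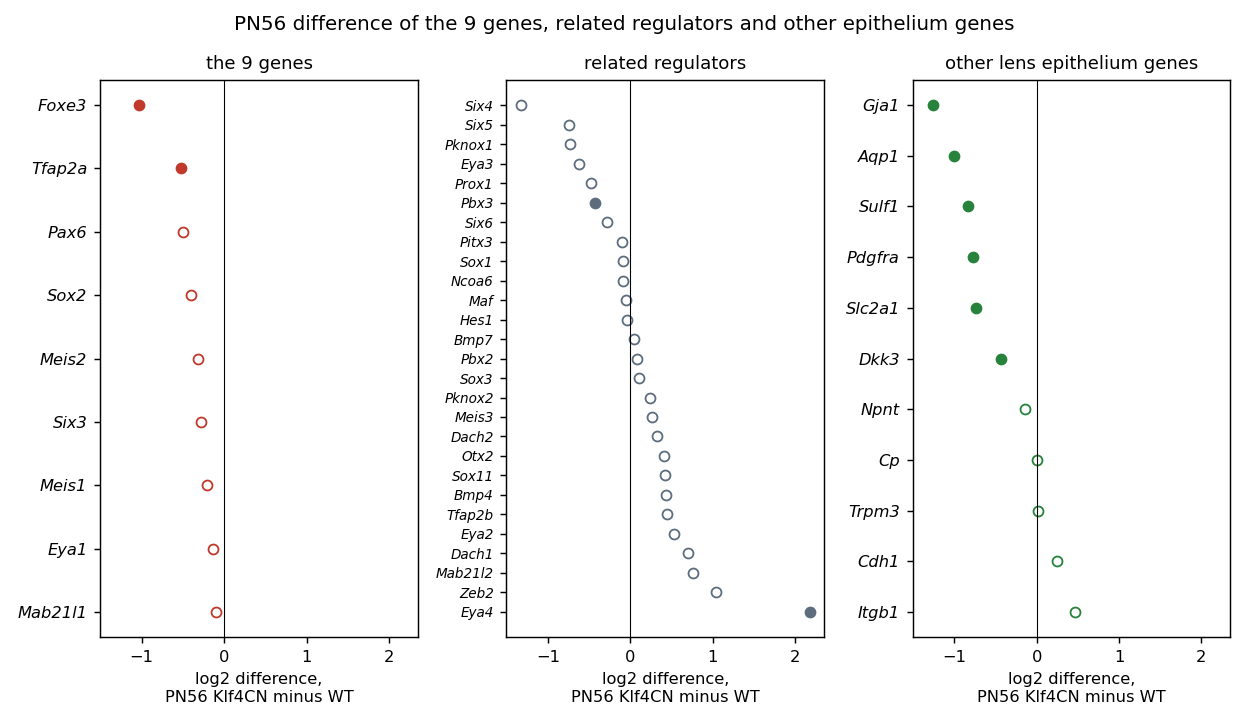
Log2 difference between PN56 Klf4CN and PN56 WT lenses (x axis, log2(signal + 16) scale) for the 9 genes, 27 related regulators and 11 other lens epithelium genes, each sorted with the lowest at the top; filled points passed the test. All of the 9 lie left of 0, related regulators lie on both sides, and 6 of the 11 epithelium genes are filled and left of 0.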

How the data were processed

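Per the labels' protocols, total RNA was amplified with the 3' IVT Express kit for whole-genome Affymetrix mouse arrays. The deposited values are linear signal intensities, made by the authors with GCOS 1.4 per the submitters' processing notes; the 2% trimmed mean of each array came to 500, so the deposited intensities had been scaled array by array. Median signals ran from 63 to 108.6. Depth does not apply to arrays, whose number limits precision.

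Signals were tested as log2(signal + 16) in limma 3.58.1 (R 4.3.3), all 10 arrays in 1 fit of 4 group means with eBayes and an intensity trend, two-sided, with Benjamini-Hochberg adjustment and calls under 0.05. The probe set of highest mean signal stood for a gene; genes whose mean signal reached the 40th percentile (54.1) were kept, leaving 13444 genes, all 9 among them, and 23 of the 25 probe sets. The 64 control probe sets were left out, and 34741 of 34945 single symbols were matched to RefSeq by gene number. Values and adjusted p for other probe sets come from the same fit over all 45101. The labels call the preparations independent. The fit was tested on simulated data.

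Named were the 9 genes, Klf4, up to 4 genes of smallest p per list, and per member the 2 genes of most similar signal. The related regulators Mab21l2, Otx2, Six6, Sox1, Pbx2, Pitx3 and Sox11 lay outside that rule and were named after their values were seen. Members and lists were chosen with earlier results of these data known. Alternatives covered scaling, offset, filter, probe sets, variance model, arrays left out, the replicate number as a block, and a marker covariate.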

Additional observations from a re-analysis of the deposited data

How the results depend on the processing

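The 2 falls at PN56 among the 9 genes became 0 with each array centred on its median, 0 without the intensity trend, 0 with the 4 PN56 arrays alone, 1 with every probe set by itself, 1 with probe sets averaged per gene and 1 with the marker covariate. Leaving out 1 array gave 0 to 3. The replicate number as a block gave 3, adding Sox2 (adjusted p = 0.034). Same-numbered arrays had correlations of their deviations from the group means of 0.27, 0.24 and 0.052 at E16.5 and 0.041 at PN56, so the numbers were not taken as pairs. At E16.5, and for the difference between the ages, the count was 0 under every alternative run. With probe sets averaged, Eya1 was at 0.084 between the ages in Klf4CN lenses (adjusted p = 0.764) and Meis1 at 0.30 in WT lenses (adjusted p = 0.374), turning the direction, because a dim Meis1 probe set and the 2 dimmer Eya1 probe sets had positive differences there. The age counts of 8 ran from 6 to 9 in both genotypes. Over all tested genes, 1757 calls at PN56 became 2692 with every probe set, 1038 with the mean of probe sets, 773 with the PN56 arrays alone, 1088 or 1053 with PN56 WT replicate 1 or PN56 Klf4CN replicate 2 left out. The 1 call at E16.5 ran from 0 to 3, and the 620 calls for the difference between the ages ran from 86 with the covariate to 939 without PN56 Klf4CN replicate 1 (291 with the mean of probe sets and 200 without the trend). With every probe set the age calls were 13204 in Klf4CN and 15168 in WT lenses, against 7140 and 7627. Causes were not tested. With 2 arrays a group at PN56, a gene's own spread rests more on the E16.5 arrays than on the PN56 arrays. The eBayes step also draws on the spread of all tested genes. No detection calls were used.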

Other observations

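Of 27 related regulators tested, 1 rose, Eya4, and 17 fell at PN56 in Klf4CN lenses, where 22.3% of all tested genes rose and 30.8% fell, and 0 rose and 13 fell in WT lenses, where 25.8% rose and 30.9% fell. Sox1, a crystallin regulator of fibres, fell by 1.94 in Klf4CN and by 1.91 in WT lenses, Pbx2 by 2.06 and by 2.41, and Pitx3, a homeodomain factor of the lens, by 1.01 and by 1.23 (log2; all past the test in limma). Sox11, a neural relative of Sox2, also fell in both, at 46.3 ± 31.7 in PN56 Klf4CN lenses against 2051 ± 826 in E16.5 Klf4CN lenses, and at 40.4 ± 50.9 in PN56 WT lenses against 1164 ± 752 in E16.5 WT lenses (SD; n = 2 at PN56 and 3 at E16.5), with PN56 means under the filter, so no fold is given. Of 11 retinal genes, 7 fell at PN56 in Klf4CN lenses (median -2.74) and 2 fell in WT lenses (median 0.14), and their part in the list's falls was not tested. Eya4 rose in Klf4CN lenses (0.79) and fell in WT lenses (-1.25). All 9 lens fibre genes rose at PN56 in both genotypes, with medians of 1.30 in Klf4CN and 1.69 in WT lenses.

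Among markers of other cells at PN56, the macrophage gene Cd68 rose in Klf4CN lenses by 2.74 (limma adjusted p = 0.0023), 1 of 6 macrophage genes tested. Of these 6, 4 had negative differences, and their median was -0.11. The collagen gene Col3a1 rose by 1.48 (adjusted p = 0.040), 1 of 7 mesenchyme genes, of which 5 had positive and 2 negative differences (median 0.31). Over all tested genes 6.08% rose. The sizes of the Cd68 and Col3a1 differences are not exact, since their PN56 WT means lie under the filter. Cd68 averaged 250 ± 27.1 in PN56 Klf4CN lenses against 28.5 ± 28.85 in PN56 WT lenses (SD). Col3a1 averaged 72.65 ± 51.4 in PN56 Klf4CN lenses against 15.5 ± 17.3 in PN56 WT lenses (SD). At E16.5 all 7 mesenchyme genes had positive differences (median 0.80) and 0 passed. Summed macrophage signal was 1428 to 2044 in PN56 Klf4CN lenses and 1386 to 1504 in PN56 WT lenses. Of corneal and surface epithelium genes, Krt12, Krt14 and Trp63 lay below the filter on dim signals and 0 of the other 3 passed at either age, and 0 of 5 endothelial genes passed.

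Over the 10 arrays, the log2 signals most like Foxe3 were those of Cant1 (Pearson r = 0.984) and Kpna6 (0.982), and those most like Tfap2a were Hs1bp3 (0.977) and Zfp975 (0.976). Ecrg4 (0.990) and Dhx32 (0.990) were most like Sox2, Msx1 (0.971) and Ptbp2 (0.957) most like Pax6, Vac14 (0.994) and Ago1 (0.993) most like Six3, and Nr2f1 (0.981) and 6330403K07Rik (0.987) most like Meis1. For Meis2 they were Marchf2 (0.985) and Zmat1 (0.980), for Mab21l1 Tsc22d1 (0.986) and Nudt4 (0.986), and for Eya1 Gas2 (0.991) and Btbd19 (0.980). The arrays share age and preparation, so these values describe likeness and were not tested.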
